A study of Mus musculus with 10 samples.

Results

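The genes described here are 10 of the inflammasome and Toll-like receptor systems: Aim2, Nlrp3, Pycard, Casp1, Il1b, Il18, Tlr2, Tlr4, Tlr7 and Cd14. They were chosen by name from knowledge of the pathway and with results of these arrays known, among them the FF against VV difference of Aim2. All 10 were measured, each by 1 probe set, among 19659 genes with a value on all arrays. Because of that choice their differences between the genotypes are given as a description, with no p-value printed. Which of them passed the threshold in the fit over all genes is stated below, but nothing is read from it.

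Inflammasomes and Toll-like receptors are sensors of the innate immune system. An inflammasome forms when a sensor such as AIM2, which binds DNA in the cytosol, or NLRP3, which responds to cell stress, recruits the adaptor ASC (the product of Pycard) and the protease caspase-1, which then matures the cytokines IL-1β and IL-18. Toll-like receptors bind microbial molecules at the cell surface or in endosomes and signal towards NF-κB and interferon regulatory factors, and in fat both systems are known best from macrophages and other leukocytes.

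The RNA of subcutaneous white fat (the inguinal-femoral depot) was hybridised to 10 one-colour arrays, 1 array per mouse. All mice were untreated F2 females on chow and 14 weeks old. Of these, 5 were homozygous for the Fat-line allele at the obesity locus Fob3a (FF) and 5 for that of the V line (VV), which the sample labels also call the lean-line allele. The V line goes back to 1 recombinant founder that was crossed back to the Fat line for 11 to 12 generations, so both groups share a largely Fat-line background. The separate mice are the replicates. None of the 10 genes lies on chromosome 15, where Fob3a lies.

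Values were log2 intensities normalised between arrays, with array medians of 7.15 to 7.17 in FF and 7.18 to 7.21 in VV. Markers of mature adipocytes were bright in every mouse: the mean log2 intensity of 9 such genes was 12.95 to 13.07 in FF and 12.87 to 12.98 in VV. Genes of liver stood far above the other mice in VV replicate 1 (mean of 9 genes 11.57, against 6.89 to 8.38 in the other 9 mice), and genes of skeletal muscle in FF replicate 1 (mean of 8 genes 9.42, against 6.71 to 7.71). Values without both mice are therefore given beside the main ones below where they bear on a result. In whole fat, fewer cells of a type and less RNA per cell cannot be told apart.

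The start regions of 3 of the genes are shown first: Aim2 and Tlr2, whose values did not overlap between the genotypes, and Pycard, which encodes the adaptor that AIM2 and NLRP3 share. Each line gives the 250 bases before a transcript start, 5′ to 3′ on the gene's strand, from RefSeq on GRCm38.p6. The Aim2 window, and the part of the Tlr2 window that holds its match, lie inside the annotated span of the gene. For these genes the start used is therefore an inner one and not the outermost. Capitals mark matches to the motifs searched.
Aim2, chr1:173420354-173420603, plus strand: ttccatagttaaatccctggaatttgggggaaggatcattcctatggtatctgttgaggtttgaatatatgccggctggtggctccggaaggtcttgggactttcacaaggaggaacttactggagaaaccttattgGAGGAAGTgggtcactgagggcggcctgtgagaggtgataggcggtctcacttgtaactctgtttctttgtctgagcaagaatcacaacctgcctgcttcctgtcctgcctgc
Tlr2, chr3:83841609-83841858, minus strand: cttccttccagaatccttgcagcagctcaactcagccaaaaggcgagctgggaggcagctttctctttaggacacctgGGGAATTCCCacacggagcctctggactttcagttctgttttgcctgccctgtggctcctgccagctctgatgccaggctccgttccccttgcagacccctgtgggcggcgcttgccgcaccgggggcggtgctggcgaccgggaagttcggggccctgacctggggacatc
Pycard, chr7:127993868-127994117, minus strand: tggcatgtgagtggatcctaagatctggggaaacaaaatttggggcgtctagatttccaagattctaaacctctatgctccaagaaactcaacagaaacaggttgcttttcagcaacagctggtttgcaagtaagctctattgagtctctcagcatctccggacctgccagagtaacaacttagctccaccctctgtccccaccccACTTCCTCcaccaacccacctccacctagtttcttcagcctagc

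Windows were searched for 7 of the 10 genes (Aim2, Il1b, Tlr2, Pycard, Casp1, Il18 and, with 2 starts, Nlrp3), which made 8 windows. Chromosome 18, where Cd14 lies, was left out of this search, so nothing is said of Cd14. Motifs were searched on both strands and were chosen after the expression values were known. The PU.1-like motif GAGGAAGT, named for a transcription factor of myeloid cells, was found in the windows of Aim2 (from base -113 to -106 before the start) and Pycard (from -44 to -37), and in 2.44% of all 32851 windows. The NF-κB motif, GGGA and CC with any 4 bases between them, was found in Tlr2 (from -172 to -163) and in 1 of the Nlrp3 windows, and in 17.6% of all windows. The interferon response motif, GAAA repeated after any 2 bases, and the AP-1 motif TGANTCA, which 2.98% and 6.75% of all windows hold, were found in none of the 8. No overlap between matches of different motifs occurred in these windows. These matches describe letters in the reference sequence only.

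Aim2, the DNA sensor, was the member with the largest difference between the genotypes. Its log2 intensity was 7.74, 7.87, 8.11, 7.69 and 7.85 in FF replicates 1 to 5 and 8.20, 8.54, 8.37, 8.28 and 8.22 in VV replicates 1 to 5. The groups did not overlap: the highest FF mouse, replicate 3, lay below the lowest VV mouse, replicate 1. The FF mean was 7.85 ± 0.16 and the VV mean 8.32 ± 0.14 (SD over 5 mice). FF minus VV was -0.47 ± 0.09 (SE), with a 95% interval from -0.66 to -0.28, so the level was 1.38-fold higher in VV. Aim2 was the only member of the 10 under an adjusted p of 0.05 in the limma fit over all genes, against 0.753% of all genes, made up of 0.132% with a lower and 0.621% with a higher level in FF. That count was 1 without FF replicate 3 or VV replicate 1, and 0 when any of the other mice (FF 1, 2, 4 and 5, and VV 2, 3, 4 and 5) was left out. Since the 10 genes were named with this contrast known, nothing is read from it. The difference itself stayed between -0.53 and -0.42 with 1 mouse left out, and it was -0.47 without FF replicate 1 and VV replicate 1 together.

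Nlrp3, the other sensor among the 10, was dim on these arrays and nearly level between the genotypes. Its log2 intensity ran from 5.45 to 5.57 in FF and from 5.51 to 5.60 in VV. The difference was -0.04, with a 95% interval from -0.13 to 0.05, and -0.00 after centring arrays on their median. The means of Nlrp3 and Il1b lay below the 25th percentile of all gene means, which was 5.99, and no detection call was used here.

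Pycard and Casp1 encode the adaptor and the protease downstream of the sensors. Pycard had log2 intensities of 7.66, 7.81, 7.86, 7.79 and 7.70 in FF and 7.75, 8.13, 7.87, 8.0 and 7.95 in VV, in order of replicate. Of the VV mice, 4 lay above every FF mouse, and VV replicate 1 lay among the FF mice. The difference of Pycard was -0.18 ± 0.07 (SE), with a 95% interval from -0.33 to -0.02. Casp1 ran from 8.20 to 8.57 in FF and from 8.02 to 8.62 in VV, so that the lowest mouse of all was VV replicate 4. Its difference was -0.10, with a 95% interval from -0.35 to 0.15, and it moved to -0.20 without VV replicate 4, to -0.16 without FF replicate 3, to -0.05 without VV replicate 3 and to -0.04 without FF replicate 1 and VV replicate 1 together.

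The cytokines matured by caspase-1 showed differences within the spread of the mice. Il1b, which encodes IL-1β, had log2 intensities from 5.20 to 5.60 in FF and from 5.48 to 5.69 in VV, a difference of -0.15 (95% interval -0.33 to 0.04), or -0.09 without FF replicate 2. Il18 varied most among the FF mice: the values were 7.76, 8.23, 8.48, 8.18 and 7.73 in FF and 8.12, 8.40, 8.14, 8.14 and 8.37 in VV. FF replicates 1 and 5 lay below every VV mouse, while FF replicate 3 was the highest mouse of all. The difference of Il18 was -0.16, with a 95% interval from -0.46 to 0.15. It moved to -0.26 when FF mouse 3 was left out, to -0.08 for FF mouse 1 and to -0.07 for FF mouse 5.

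Of the receptors at the cell surface, Tlr2, which binds bacterial lipopeptides, separated the genotypes without overlap. Its log2 intensity was 8.14, 8.17, 7.98, 7.96 and 7.82 in FF and 8.23, 8.37, 8.36, 8.28 and 8.32 in VV. Every VV mouse lay above every FF mouse, and the VV mice lay closer together (SD 0.06) than the FF mice (SD 0.15). The difference was -0.30 ± 0.07 (SE), 1.23-fold higher in VV with a 95% interval from 1.11 to 1.37, and -0.35 without FF replicate 1 and VV replicate 1. Aim2 and Tlr2 were thus 2 members of 10 with no overlap and a lower level in FF, a pattern found in 1.34% of all genes (4.7% in either direction). Again nothing is read from that count.

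Tlr4, the receptor of lipopolysaccharide, overlapped almost wholly. It ran from 8.26 to 8.95 in FF and from 8.46 to 8.90 in VV, and the difference was -0.06 with a 95% interval from -0.33 to 0.21. Its sign turned when 1 mouse was left out: the difference was 0.01 without FF replicate 1 and 0.01 without VV replicate 4. It was -0.16 without FF replicate 3. Cd14, which hands lipopolysaccharide to TLR4, had values of 7.59, 7.73, 7.86, 7.48 and 7.69 in FF and 8.02, 8.0, 7.74, 7.86 and 7.70 in VV. VV replicates 1, 2 and 4 lay above every FF mouse, VV replicate 4 by less than the decimals printed, and VV replicates 3 and 5 lay among the FF mice. The difference of Cd14 was -0.19 ± 0.08 (SE), with a 95% interval from -0.38 to -0.01. It was -0.15 without VV replicate 1, the highest mouse, and -0.14 ± 0.09 (SE) without FF replicate 1 and VV replicate 1 together.

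Tlr7, an endosomal receptor of single-stranded RNA, lay lower in 4 of the FF mice than in most VV mice. Its log2 intensity was 7.79, 8.0, 8.50, 7.86 and 7.82 in FF and 8.23, 8.62, 8.22, 8.21 and 7.99 in VV. FF replicate 3 lay 0.50 log2 units above the next FF mouse and above 4 of the 5 VV mice. The difference was -0.26, with a 95% interval from -0.58 to 0.06. It was -0.39 without FF replicate 3 and -0.17 without VV replicate 2.

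**Figure D1:**
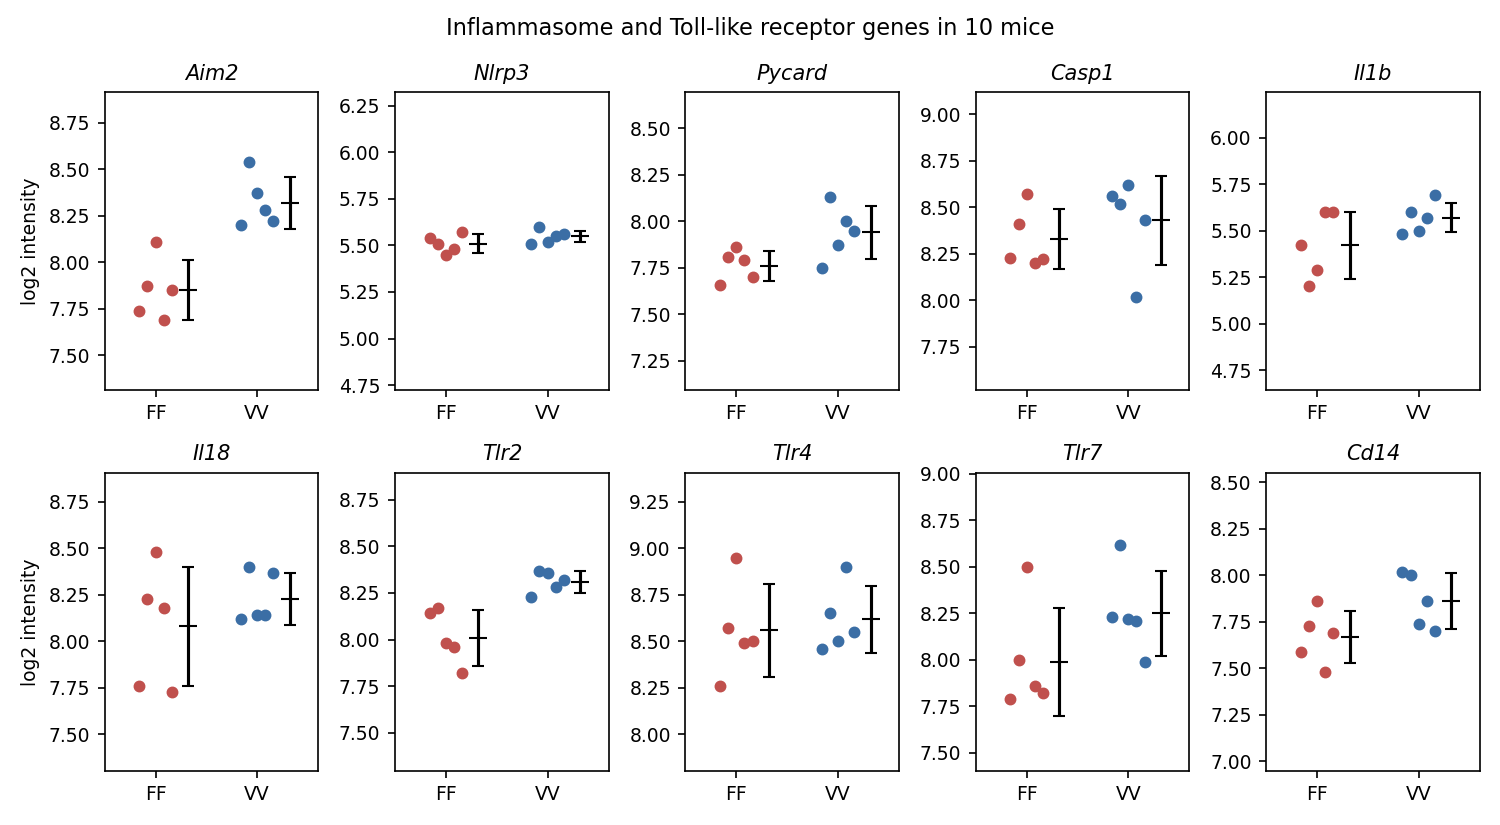
Log2 intensity of each of the 10 genes in the 5 FF and 5 VV mice. Each point is 1 mouse, in order of replicate number from left to right, the bar beside each group is the mean ± SD, and every panel spans 1.6 log2 units. Aim2 and Tlr2 do not overlap between the groups, and FF replicate 3 is the high FF point in Tlr7 and Tlr4.

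All 10 differences lay below 0, with a median of -0.17, where 49.7% of all genes lay below 0 and the median of all genes was 0.00. After centring arrays on their median, all 10 still lay below 0 with a median of -0.13, while the median of all genes was 0.04. Without FF replicate 1 and VV replicate 1 the median of the 10 was -0.15. The 10 genes were read in the same mice, so these are not 10 independent observations.

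**Figure D2:**
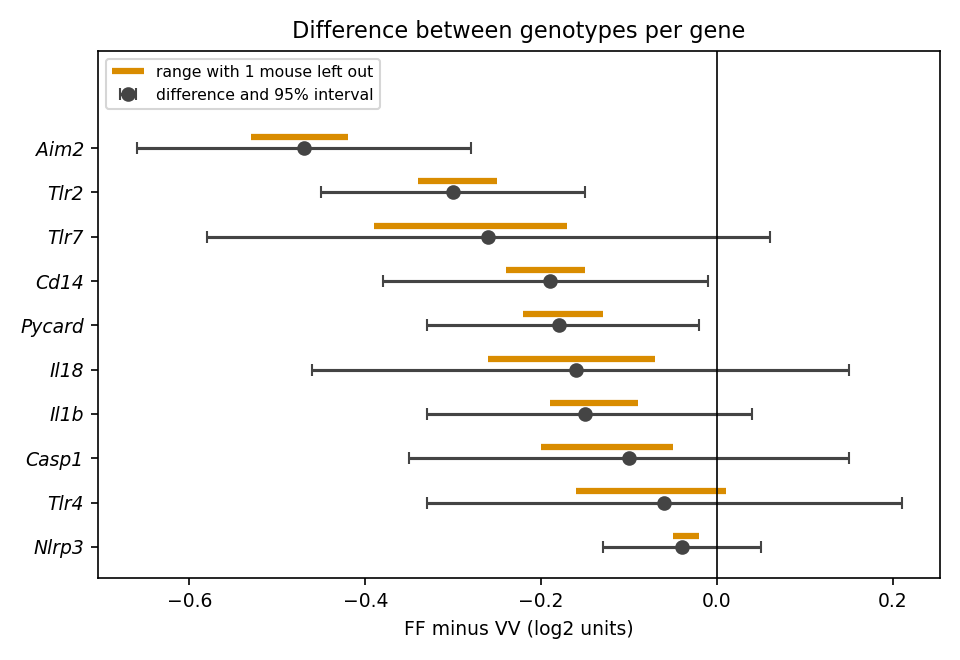
Difference in log2 intensity, FF minus VV, for each of the 10 genes (points, with the 95% interval from limma as thin bars). The thick bar above each point is the range of the difference over the 10 fits that leave out 1 mouse each, and only that of Tlr4 crosses 0.

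The members were not high and low in the same mice to the same degree. FF replicate 3 was the highest FF mouse for 7 of the 10 genes (Aim2, Pycard, Casp1, Il18, Tlr4, Tlr7 and Cd14) and the lowest mouse of all for Nlrp3. VV replicate 2 was the highest mouse of all for 5 genes (Aim2, Nlrp3, Pycard, Tlr2 and Tlr7), and VV replicate 1, in which the liver genes were highest, was the lowest VV mouse for 7. After subtracting each group's mean, Aim2 and Tlr7 varied together over the 10 mice with r = 0.90, Tlr7 and Cd14 with r = 0.74 and Pycard and Il18 with r = 0.69. Tlr2 followed none of the others closely, with r between -0.55 and 0.23. These correlations describe 10 mice, in each of which all genes share 1 array, and carry no test.

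Among all other named genes, those most like 4 of the members over the 10 mice, by the same group-centred correlation, were the following. For Aim2 they were Pias1 (r = 0.96), Tfap4 (r = 0.95) and Flcn (r = 0.95). Tlr7 was followed most closely by Clec4a1, a lectin receptor of myeloid cells (r = 0.97), Glb1l (r = 0.96) and Zscan29 (r = 0.96). For Il18 the closest were Zfp983 (r = 0.98), Itga9, an integrin chain (r = 0.97), and Wdr3 (r = 0.97), and for Nlrp3 they were Cdk16 (r = 0.95), Pla2g4f (r = 0.94) and Phc2 (r = 0.94). None of these 12 genes passed the test between FF and VV in limma (adjusted p from 0.0844 to 0.997). They are the extremes of a search over 19659 genes in 10 mice.

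Genes of the same pathways that are no members were then compared between FF and VV in limma, in 6 lists with 96 of 109 genes measured. None of the 96 passed an adjusted p of 0.05 over all genes, and 28 were lower and 2 higher in FF at an unadjusted p under 0.05, against 6.18% of all genes lower and 16.4% in either direction. The largest share was among the other Toll-like receptors and their accessory proteins. All 14 measured members of that list had a difference below 0 (12 of 14 after centring arrays on their median), where 49.7% of all genes lay below 0 before centring. The list median was -0.28, also without FF replicate 1 and VV replicate 1, and 10 lay under an unadjusted p of 0.05 in limma.

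Cd180, a Toll-like receptor homologue known from B cells, was 8.73, 8.92, 8.80, 8.95 and 9.18 in FF and 9.32, 10.17, 9.51, 9.53 and 9.53 in VV. The groups did not overlap, and the difference was -0.69 ± 0.14 (SE), with an adjusted p of 0.0547 in limma, above the threshold. The adjusted p of Cd180 was 0.0443 without VV replicate 1 and above the threshold without any other mouse (up to 0.134). Without FF replicate 1 and VV replicate 1 together it was 0.0989. Ly86, which encodes MD-1, the partner of CD180, differed by -0.45 without overlap (adjusted p = 0.0748 in limma). The other endosomal receptors, named here after their values were seen, spread widely: Tlr8 lay at -0.50, Tlr13 at -0.51 and Tlr9 at -0.27, but Tlr3 at -0.13 and Tlr12 at -0.03 (0.00 after centring). Their trafficking protein Unc93b1 lay at -0.29. None of these 6 passed in limma (adjusted p from 0.106 to 0.865), and no difference between the receptors was tested.

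The list of Toll-like and IL-1 receptor signalling genes, which also holds inhibitors and interferon regulatory factors, lay close to level in its median. Of 25 measured, 15 had a difference below 0 (10 of 25 after centring), and the median was -0.02. Before centring 49.7% of all genes lay below 0. At an unadjusted p under 0.05 in limma 1 was lower and 2 were higher in FF, against 16.4% of all genes in either direction. Irf5, a transcription factor activated by Toll-like receptors in myeloid cells, differed by -0.31 (adjusted p = 0.0786 in limma). Irak1, a kinase of the receptor complex, differed by 0.17 (adjusted p = 0.0861 in limma): every FF mouse (9.47 to 9.55) lay above every VV mouse (9.23 to 9.41). Myd88, the adaptor shared by most of these receptors and named here after its value was seen, differed by -0.01 with a 95% interval from -0.16 to 0.13.

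Other inflammasome sensors and genes of pyroptosis all lay below 0 as differences, 18 of 18 (17 after centring), with a median of -0.11 and 7 under an unadjusted p of 0.05 in limma. Of all genes, 49.7% lay below 0 before centring and 6.18% were lower at an unadjusted p under 0.05. Naip2, a sensor of bacterial secretion systems, was 7.13 to 7.42 in FF and 7.57 to 7.86 in VV, with no overlap. Its difference was -0.35 ± 0.07 (SE), with an adjusted p of 0.0547 in limma. That p was 0.0391 without FF replicate 3 and above the threshold without any other mouse (up to 0.142). Without FF replicate 1 and VV replicate 1 together it was 0.107. Naip2 has close relatives in the Naip family, and its probe set may also take up their signal. Casp4, the mouse caspase-11, which senses lipopolysaccharide inside cells, differed by -0.28 (adjusted p = 0.154 in limma), and Gsdmd, the pore protein cut by these caspases and named after its value was seen, by -0.18 (95% interval -0.37 to 0.01).

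In the list of the PYHIN family, to which Aim2 belongs, and other DNA sensors, 11 of 13 differences lay below 0 (9 after centring), with a median of -0.16. Before centring 49.7% of all genes lay below 0. In limma 6 of the list were lower in FF at an unadjusted p under 0.05, against 6.18% of all genes. Ifi209 of the PYHIN family had the largest difference, -0.83 ± 0.19 (SE), with an adjusted p of 0.0687 in limma. Its values ran from 5.72 to 6.83 in FF and from 6.84 to 7.41 in VV. The difference lay between -0.95 and -0.68 with 1 mouse left out. It was -0.65 without FF replicate 1, the lowest mouse, and VV replicate 1 together (adjusted p = 0.119 in limma). Ikbke, a kinase of interferon induction, differed by -0.21 (adjusted p = 0.168 in limma). PYHIN genes are close copies of each other, so that their probe sets may share signal.

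Among 12 other genes of the IL-1 family and its receptors, 11 differences lay below 0 (8 after centring), with a median of -0.06. Before centring 49.7% of all genes lay below 0. Of the 12 genes, 1 was lower at an unadjusted p under 0.05 in limma, against 6.18% of all genes. That gene was Il1rn, the natural antagonist of the IL-1 receptor, at -0.32 ± 0.10 (SE, adjusted p = 0.140 in limma), and Il18r1, a chain of the IL-18 receptor, differed by -0.13 (adjusted p = 0.605), or by -0.05 without VV replicate 5. Of 14 inflammatory target genes, 12 lay below 0 (8 after centring), with a median of -0.10. In limma 3 of them were lower in FF at an unadjusted p under 0.05, to be set against the same shares of all genes. Icam1, an adhesion molecule, differed by -0.27 (adjusted p = 0.118 in limma). Without FF replicate 3 its adjusted p was 0.05 when rounded, just below the threshold. Without any other mouse it was above the threshold (up to 0.234). The chemokine Cxcl10 differed by -0.51 (adjusted p = 0.244). In Cxcl10, VV replicate 1 was the highest mouse at 8.87, and the difference was -0.32 without it and -0.25 without FF replicate 1 and VV replicate 1 together. The cytokine Il6, named after its value was seen, was at 4.23 to 4.37 in FF and 4.15 to 4.45 in VV, near the low end of the scale.

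**Figure D3:**
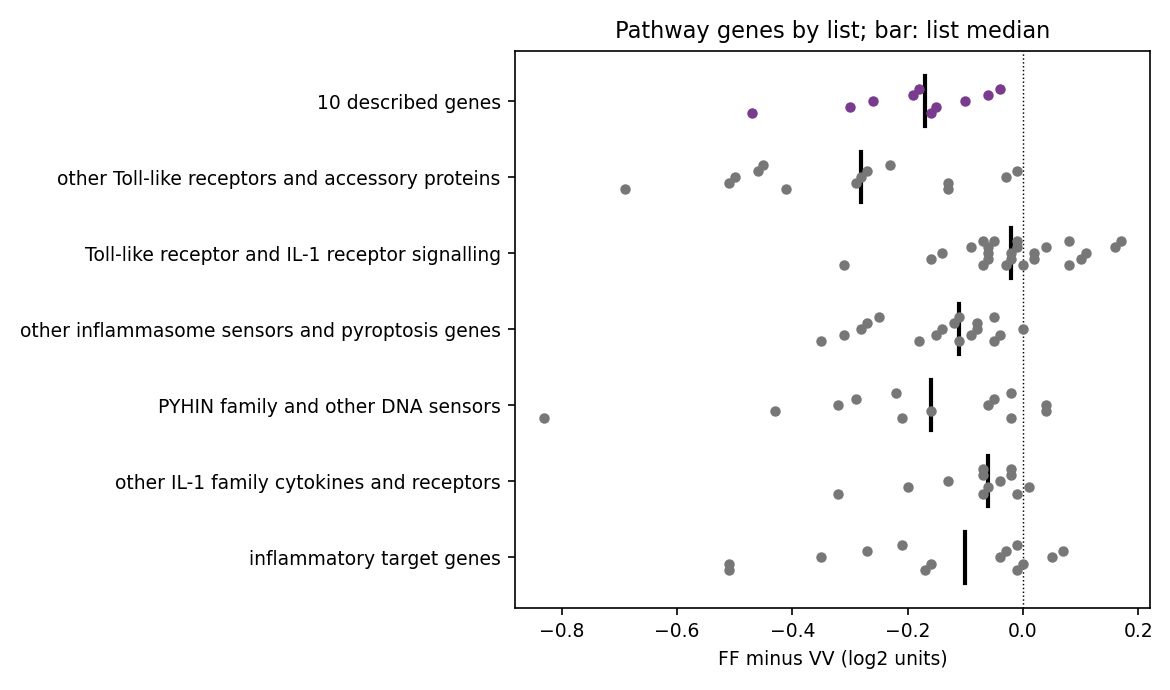
Difference in log2 intensity, FF minus VV, for the 10 described genes (top row) and for 96 other genes of the same pathways in 6 lists. Each point is 1 gene and the black bar is the median of its list, from -0.28 for the other Toll-like receptors to -0.02 for the signalling genes.

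Markers of leukocytes differed between the groups in the same direction as the 10 genes. Of 10 pan-leukocyte genes, 2 fell in FF in limma, against 0.132% of all genes. They were Ptprc, which encodes CD45, by 0.68 (adjusted p = 0.0422) and Arhgdib by 0.43 (adjusted p = 0.0402). All 10 differences lay below 0, against 49.7% of all genes, with a median of -0.47. The mean log2 intensity of the list was 9.42 to 9.80 in FF and 9.97 to 10.46 in VV, with no overlap. With 1 mouse left out, the adjusted p of Ptprc in limma was below 0.05 without FF replicate 3 (0.0468), without FF replicate 4 (0.0369) and without VV replicate 1 (0.0449), and from 0.0575 to 0.104 without any other mouse. That of Arhgdib was below it without FF replicate 3 (0.0277) or VV replicate 1 (0.0449), and from 0.0513 to 0.107 without any other. Without FF replicate 1 and VV replicate 1 together neither passed (0.0849 for Ptprc and 0.0989 for Arhgdib), and the list median was -0.45. Of 14 macrophage and monocyte genes none passed, and 10 were lower at an unadjusted p under 0.05 in limma, against 6.18% of all genes. Their median difference was -0.28, and the list mean was 9.56 to 9.98 in FF and 9.98 to 10.33 in VV.

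Ccr2, the chemokine receptor of monocytes, differed by -0.64 (adjusted p = 0.0511 in limma), Adgre1, which encodes F4/80, by -0.53 (adjusted p = 0.105), Cd68 by -0.41 (adjusted p = 0.159) and Csf1r by -0.27 (adjusted p = 0.154). Without FF replicate 3 the adjusted p in limma was 0.0422 for Ccr2 and 0.0382 for Csf1r. For Ccr2 it was 0.0433 without FF replicate 1 and from 0.0504 to 0.114 without any other mouse. Without FF replicate 1 and VV replicate 1 together it was 0.0228 for Ccr2 and 0.24 for Csf1r. For Csf1r it was from 0.158 to 0.3 without any mouse other than FF replicate 3. The highest mouse of the macrophage list was VV replicate 2 and the highest FF mouse was replicate 3, the mice in which Aim2 and Tlr7 were highest in their groups. After subtracting group means, the macrophage list mean varied over the 10 mice with Tlr7 at r = 0.86 and with Aim2 at r = 0.79. It was 0.67 for Pycard, 0.64 for Tlr4, 0.62 for Il18, 0.61 for Cd14 and 0.35 for Casp1. For Tlr2 r was -0.24, for Nlrp3 -0.15 and for Il1b -0.11. With the pan-leukocyte list mean, r was 0.41 for Tlr7 and 0.47 for Aim2, in a range from -0.28 for Tlr2 to 0.57 for Pycard. The B cell list mean gave r from -0.49 for Cd14 to 0.58 for Il1b. The mammary epithelium list mean gave r from -0.61 for Aim2 to 0.35 for Il1b. The part of leukocyte number in the differences of the 10 genes was not tested.

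Markers of other leukocytes varied in how far they differed. Of 10 dendritic cell genes 1 fell, against 0.132% of all genes, and the list median was -0.25. That gene was H2-Eb1, an antigen-presenting molecule, lower by 0.45 (adjusted p = 0.0415 in limma). The adjusted p of H2-Eb1 in limma was 0.039 without FF replicate 3, 0.0449 without VV replicate 1 from 0.0652 to 0.1 without any other mouse, and 0.0539 without FF replicate 1 and VV replicate 1 together. The integrin Itgax differed by -0.92 (adjusted p = 0.162 in limma). B cell genes had a list median of -0.59 with none of 6 past the threshold. They were led by Ms4a1 at -1.41 (adjusted p = 0.0875 in limma), with Cd79a at -0.87 (adjusted p = 0.121). The adjusted p of Ms4a1 was 0.033 without FF replicate 4 and from 0.0792 to 0.183 without any other mouse. T and NK cell genes had a median of -0.30, with none past the threshold. Cd4 lay at -0.30, with an adjusted p in limma just above the threshold (0.05 when rounded). For Cd4 it was 0.03 without VV replicate 1 and from 0.0539 to 0.122 without any other mouse. Cd3e lay at -0.22 (adjusted p = 0.306). Neutrophil genes, by contrast, lay near level: the median was 0.03, Csf3r differed by -0.20 (adjusted p = 0.203) and S100a8 by 0.03 (adjusted p = 0.912). Lymph node stroma was represented by 3 genes with a median of -0.48, from -0.84 for Cxcl13 (adjusted p = 0.0964 in limma) to -0.00. The mean of these 3 genes overlapped between the groups, at 7.38 to 7.92 in FF and 7.82 to 8.46 in VV.

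Mammary epithelial genes, which the inguinal depot can hold, had a median of -0.04 with no gene past the threshold and Krt18 at -0.20 (adjusted p = 0.370 in limma, and a difference of -0.12 without VV replicate 1), and endothelial genes had a median of -0.08, with Cldn5 at -0.33 (adjusted p = 0.158). In mature adipocyte genes the median was 0.06, and Slc2a4 differed by 0.54 (adjusted p = 0.0756). Of these 9 genes, 4 were higher and 1 lower in FF at an unadjusted p under 0.05 in limma, against 16.4% of all genes in either direction. Among brown and beige adipocyte genes 5 of 8 rose, against 0.621% of all genes. Ucp1 rose by 3.96, Cidea by 2.96 and Ppargc1a by 0.99 (adjusted p = 0.00553, 0.0219 and 0.0219 in limma). Ucp1 passed whichever mouse was left out. Neither Ppargc1a nor Cidea passed without FF mouse 5 (0.0507 for both) or VV mouse 5 (0.063 for both), and Ppargc1a was at 0.0718 without VV mouse 2 and Cidea at 0.0708 without FF mouse 2. Liver genes, with Alb at -0.98 (adjusted p = 0.431) and Ahsg at -1.72 (adjusted p = 0.414), and muscle genes, with Myh1 at 0.57 (adjusted p = 0.411), held no gene past the threshold. Without VV replicate 1 Alb lay at -0.45 and Ahsg at -0.70, and without FF replicate 1 Myh1 lay at 0.23. The median of the liver list moved from -1.14 to -0.28 and that of the muscle list from 0.56 to 0.24 without FF replicate 1 and VV replicate 1.

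**Figure D4:**
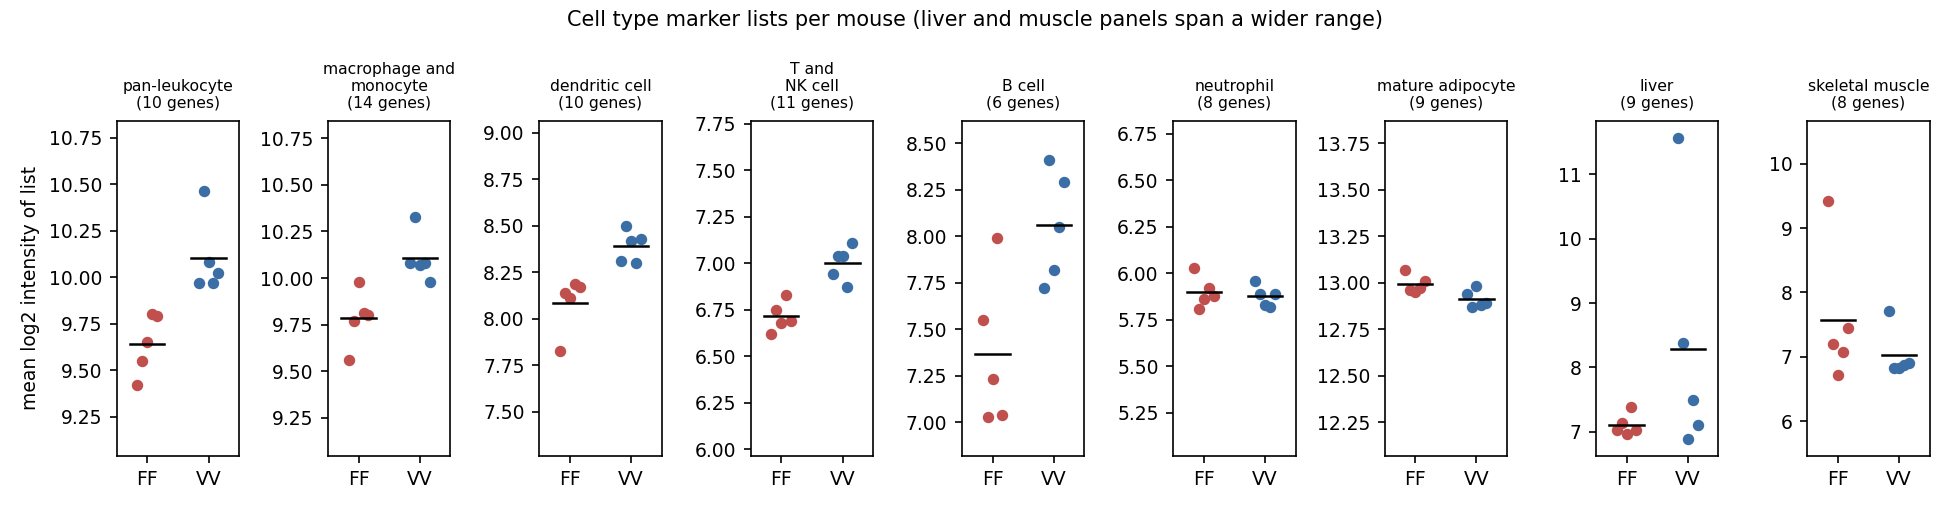
Mean log2 intensity of 9 marker lists in each FF and VV mouse (points, in order of replicate number), with the group mean as a line. Pan-leukocyte, dendritic cell and T and NK cell lists do not overlap between the groups, neutrophil genes lie level, and the liver and muscle panels show VV replicate 1 at 11.57 and FF replicate 1 at 9.42.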

How the data were processed

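The deposited values are log2 intensities per probe set that the authors made with RMA, per the submitters' processing notes. Which RMA version, chip description file and build they used is not given in the sources used here. Of 35557 probe sets, 25689 had values on all 10 arrays and 9868 on none. Those naming 1 gene (20777) gave 19659 genes, each read by its probe set of highest mean, with symbols from platform annotation updated through RefSeq (20699 probe sets matched). Of the listed pathway genes, 3 were found through a synonym.

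FF and VV (n = 5 each) were compared in limma 3.58.1 (R 4.3.3; lmFit and eBayes, two-sided, no covariates), adjusted by Benjamini-Hochberg over all genes at 0.05. Each array is a separate animal per the labels, and the number of arrays limits the precision. The procedure was tested on simulated data. Figures used matplotlib 3.10.9.

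The 10 genes, the lists, the marker lists and the alternatives were chosen with earlier results of these data known. Named are the 10 genes; per pathway list the genes past the threshold, otherwise the 2 of smallest p; per marker list up to 3 past the threshold, otherwise 1, and 10 standard markers; and the 3 genes most like Aim2, Nlrp3, Tlr7 and Il18. Alternatives were leaving out each mouse or FF replicate 1 and VV replicate 1, a replicate block, median centring, quantile normalisation, a filter at the 25th percentile of gene means, array weights, limma's trend and robust options, and averaged probe sets.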

Additional observations from a re-analysis of the deposited data

Results flagged for a closer look

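Of 92 groups of 5 mice examined for the 46 named genes, 6 held 1 mouse far from the other 4, its gap to the next mouse being over 0.71 of the group's range; chance flags about 1 in 20 groups. Tlr7 was 8.50 in FF replicate 3 against 8.0 in the next FF mouse. In VV replicate 2, Cd180 was 10.17 against 9.53 in the next VV mouse and Adgre1 was 10.83 against 10.21. H2-Eb1 was 9.91 in FF replicate 1, below 10.24 in the next FF mouse. Krt18 was 8.86 in VV replicate 1 against 8.47, and Cldn5 was 11.21 in VV replicate 4 against 10.87.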

How the results depend on the processing

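Of 178 alternative values for the 10 genes, 166 kept direction and side of the threshold, 10 lost it (all for Aim2) and 2 turned sign (Tlr4 at 0.01 without FF replicate 1 or VV replicate 4, in a range from -0.16 to 0.01 over the mice left out). Of 646 values for 36 other named genes, 576 kept both, 38 lost and 29 gained the threshold and 3 turned sign, all of S100a8: leaving out 1 mouse gave -0.05 to 0.08, below 0 without FF replicate 1 or VV replicate 4, and it was -0.00 without FF replicate 1 and VV replicate 1. Leaving out 1 mouse gave 7 (without VV replicate 2) to 379 (without FF replicate 3) calls among all genes, where 148 passed with all mice. It gave 0 or 1 of the 10 genes, and 0 or 1 among the other Toll-like receptors, the inflammasome sensors and the inflammatory targets.

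Without FF replicate 1 and VV replicate 1, 28 genes passed and 0 of the 10. With the replicate number as a block, 5 passed and 0 of the 10. Same-numbered mice did not deviate together (correlations from -0.26 to 0.10), so the mice share only a number. Centring arrays gave 601 calls and 1 each among the other receptors (Cd180), signalling genes (Irak1), inflammasome sensors (Naip2) and DNA sensors (Ifi209). The filter on dim genes, which left out Nlrp3 and Il1b, gave 230 calls, with Cd180 and Naip2 as 1 in each list. Trend and robust settings added 1 receptor, Cd180. Array weights gave 383 calls, with 2 receptors (Cd180, Ly86), 1 signalling gene (Irf5) and 1 sensor (Naip2). The cause was not tested. Over all alternatives the difference of Aim2 lay from -0.53 to -0.42. For Nlrp3 and Il1b, low signal limits what could be seen.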
